A study of Mus musculus with 48 samples.

Results

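Kidneys of 6 female BALB/c mice given vancomycin at 50 mg/kg into a vein (iv) were compared with kidneys of 6 female BALB/c mice given saline by the same route. These 12 arrays were chosen by their titles from the 48 of the study. Saline mice have the numbers 1 to 6 and treated mice 7, 9 to 12 and 78. All mice received a dose a day for 7 days and were killed on day 8, and total RNA of a piece of kidney from each mouse was read on an Affymetrix array. The same dose injected into the peritoneum (ip), with its own saline group, and the iv doses of 200 and 400 mg/kg were set beside it, each with 6 mice. The labels name no allele and no further agent. BALB/c is an inbred albino laboratory strain, and this dose was the lowest of the 3 tested.

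Vancomycin is a glycopeptide antibiotic that blocks cell wall synthesis in Gram-positive bacteria. It leaves the body through the kidney and can injure the proximal tubule, the segment behind the filter that reclaims most of the filtered salt, sugar and protein. Injured tubule cells switch on genes such as Havcr1 and Clu and lose transporters. Immediate early genes are another class of response: factors such as Fos, Egr1 and Nr4a1 are transcribed within minutes of a growth factor, hormone or stress stimulus from proteins already in the cell, and their transcripts are short-lived.

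Values are log2 intensity, on which a difference of 1 is a 2-fold change, and the median of the whole table is 3.47. The values did not follow the probe set identifiers listed beside them, so genes were named only inside 3 stretches of the table where the shift between values and identifiers had been worked out, which left 5748 genes that could be tested. The kidney markers were bright in both groups, with Umod of the thick ascending limb at 13.18 to 13.35 in saline and 13.08 to 13.33 at 50 mg/kg, and the glomerular filter gene Nphs1 at 4.73 to 5.45 and 5.19 to 6.15. Of the named markers of cells other than kidney epithelium, 11 of 12 for T and NK lymphocytes, 7 of 8 for B and plasma cells, 4 of 4 for neutrophils and 5 of 5 for adrenal gland had means under the table median in both groups. The same held for 7 of 21 macrophage and myeloid, 2 of 21 matrix and fibroblast, 0 of 3 red blood cell and 3 of 8 adipose markers, and for 3 of 8 of muscle, liver, pancreas or spleen. The arrays of mouse 1 (saline) and mouse 9 (50 mg/kg) stood apart, with a mean level of 6.08 each over the probe sets kept against 6.35 to 6.42 in the other 10. Arrays of ip mice read higher at the top of the range than those of iv mice (90th percentile 9.07 to 9.23 against 8.28 to 8.75), so levels set across routes carry that offset, while each effect was taken within its route.

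Among the genes that could be named, the difference at 50 mg/kg was mostly a fall in a small group, with the immediate early genes at its head. Of the 5748 named genes, 30 fell (0.522%) and 2 rose (0.0348%) at a Benjamini-Hochberg adjusted p under 0.05 in limma. Of those that fell, 24 changed by more than 2-fold. Immediate early genes made up 8 of the 30, with Fos, Nr4a1 and Egr1 lower by 21.2, 18.2 and 14.6-fold. In the whole table of 24930 probe sets, 141 fell (0.566%) and 55 rose (0.221%), and 163 of these 196 had no name. The unnamed ones held falls down to -3.80 and rises up to 2.63 on the log2 scale. The named genes are thus a part of the difference between the groups. The median change over all named genes was -0.01. The 6 values of each group did not overlap for 32 genes of 5748 (0.557%), among them 19 of the 30 that fell and 1 of the 2 that rose. Without the arrays of mice 1 and 9, 28 genes fell, 25 of them among the 30, and 1 rose; the calls lost were those of Ciart, Ddit3, Kcnk5, Myl6, Tiparp and Zfp418.

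**Figure D1:**
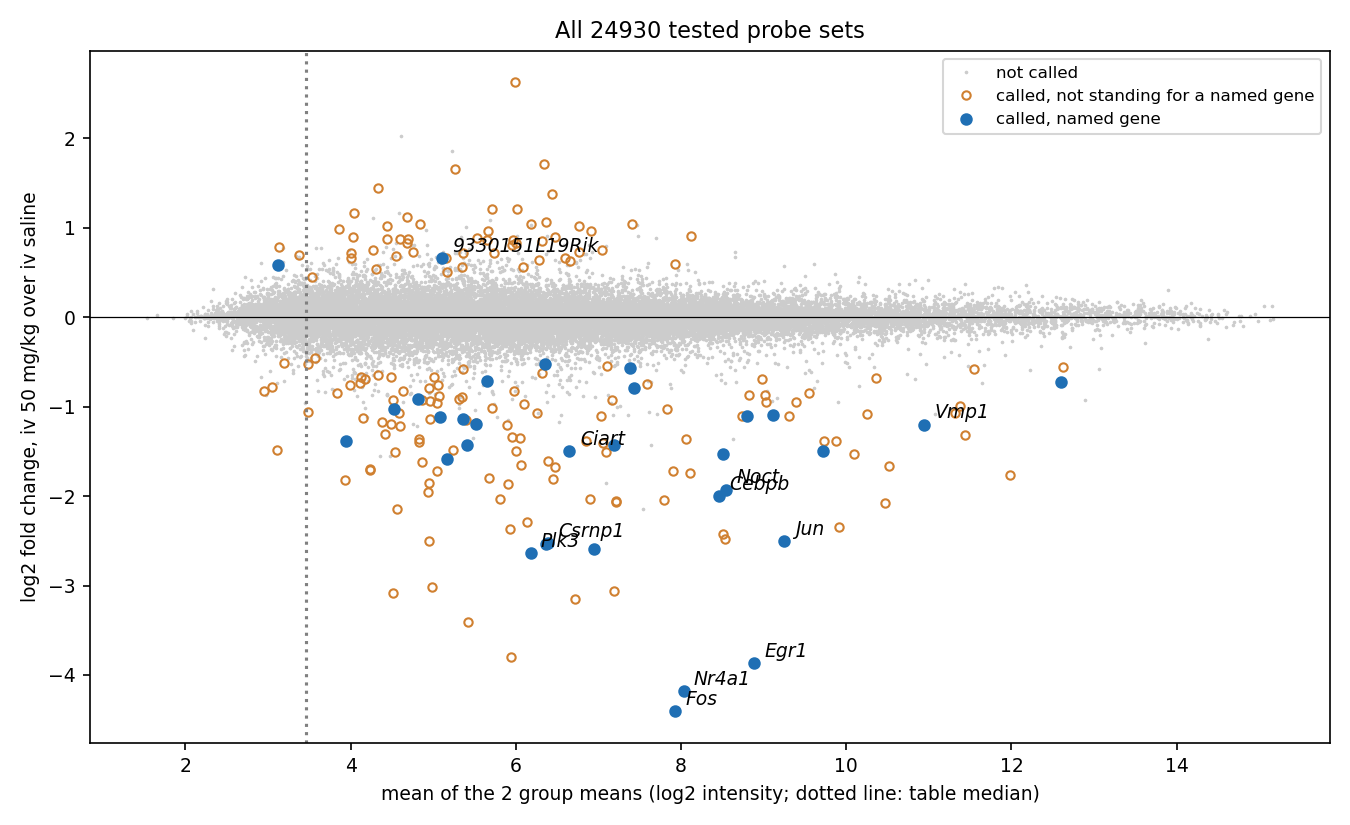
Log2 fold change at iv 50 mg/kg over iv saline against the mean log2 intensity of both groups, 1 point per probe set, with filled points for called named genes and open circles for the other called probe sets. Fos (-4.41), Nr4a1 (-4.18) and Egr1 (-3.87) lie farthest below 0, and the calls above 0 are fewer and smaller.

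Fos, Nr4a1 and Egr1 had the 3 largest falls among the named genes. Fos, a subunit of the AP-1 dimer, was at 9.16 to 10.59 (median 10.36) in the 6 saline mice and at 2.57 to 7.86 (median 6.11) in the 6 treated mice. Every treated mouse lay below every saline mouse, and the treated mice were spread far more widely. The log2 fold change was -4.41 ± 0.72 (SE, n = 6 and 6, limma adjusted p = 0.000126). This SE, like the others given, uses the spread within all 8 groups. The SD of Fos was 0.56 in iv saline and 2.04 at iv 50 mg/kg. Egr1, a zinc finger factor, ranged from 10.14 to 11.13 (median 10.91) in saline and from 4.25 to 8.82 (median 7.26) at 50 mg/kg. The groups again did not overlap, and the log2 fold change was -3.87 ± 0.57 (SE, adjusted p = 1.91e-05). Jun, the partner of Fos in AP-1, had 9.99 to 10.90 (median 10.55) in saline and 6.64 to 9.14 (median 7.81) after vancomycin. It fell by 2.51 on the log2 scale (SE 0.30, adjusted p = 2.24e-07), with no overlap.

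The orphan nuclear receptor Nr4a1 had the clearest separation among these factors. Saline mice had 9.71 to 10.53 (median 10.15) and treated mice 5.13 to 7.15 (median 5.61). All 6 treated values lay over 2 log2 units below the lowest saline value. The log2 fold change was -4.18 ± 0.41 (SE, adjusted p = 1.57e-09). Csrnp1, a cysteine- and serine-rich nuclear protein, had 7.23 to 8.02 (median 7.74) in saline and 4.28 to 5.61 (median 5.22) at 50 mg/kg. Its groups were apart as well, at -2.52 ± 0.26 (SE, adjusted p = 6.06e-09).

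Promoter sequences of Fos and Nr4a1 are shown because both carry copies of TGACG, the core of the element that binds the cyclic AMP responsive factor CREB, in the 300 bases around the start of the gene. The sequences are from RefSeq (GRCm38.p6), 5′ to 3′ on the strand of the gene, from 250 bases before the start site to 50 after it, with the matches in capitals (TGACG, or CGTCA where the match is on the other strand). Fos is at chr12:85473640-85473939 (+) and Nr4a1 at chr15:101266596-101266895 (+).
Fos: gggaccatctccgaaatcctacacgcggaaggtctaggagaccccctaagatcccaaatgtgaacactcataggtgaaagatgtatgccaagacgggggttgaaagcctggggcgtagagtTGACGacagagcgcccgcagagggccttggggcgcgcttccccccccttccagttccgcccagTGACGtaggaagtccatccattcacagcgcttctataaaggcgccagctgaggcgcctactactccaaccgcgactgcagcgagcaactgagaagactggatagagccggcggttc
Nr4a1: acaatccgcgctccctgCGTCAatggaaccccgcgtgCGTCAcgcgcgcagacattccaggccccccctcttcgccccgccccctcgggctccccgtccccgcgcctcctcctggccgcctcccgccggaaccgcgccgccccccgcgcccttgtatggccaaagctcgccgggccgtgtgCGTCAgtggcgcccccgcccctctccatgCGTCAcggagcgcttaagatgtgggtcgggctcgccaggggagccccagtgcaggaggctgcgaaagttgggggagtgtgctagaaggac
The Fos window has 2 matches, whose leftmost bases are at -129 and -66 from the start, and the Nr4a1 window has 4. A match on either strand was found in 6837 of 32851 windows (20.8%). Of the 30 genes that fell, 21 had a window and 12 of these held a match (57.1%), against 1662 of the 4656 tested genes with a window (35.7%). These are counts of letters, and no binding was measured.

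The signalling members of the immediate early list fell with the factors. Plk3, a polo-like kinase of the stress response, was at 6.37 to 8.22 (median 7.53) in saline and 3.88 to 5.97 (median 5.00) at 50 mg/kg. Rasd1, a dexamethasone-induced Ras-like GTPase, was at 7.16 to 8.07 (median 7.64) and 3.71 to 6.03 (median 5.30). Trib1, a pseudokinase adaptor, was at 5.00 to 6.18 (median 5.78) and 4.18 to 4.96 (median 4.59). None of the 3 overlapped between groups, though Trib1 came close. Their log2 fold changes were -2.63 ± 0.43, -2.54 ± 0.30 and -1.11 ± 0.21 (SE, adjusted p = 0.000109, 1.66e-07 and 0.00131).

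Of 41 immediate early genes listed, 15 were named and bright enough to test, and 8 fell, 0 rose and 7 did not pass by limma (12 lower and 0 higher at an unadjusted p under 0.05). The median over the 15 was -1.11 against -0.01 over all genes, and 14 of 15 had a lower mean at 50 mg/kg. The 7 that did not pass ranged from -0.88 to 0.05, with the kinase Plk2 at -0.71 (adjusted p = 0.602). Leaving out mice 1 and 9 gave 8 falls again and a median of -1.26. Mice at this dose held a similar rank over the 8 genes that fell. Mice 7 and 9 were among the lowest pair of the 6 in 7 of 8 genes each, and mice 12 and 78 were among the highest pair in 7 of 8 each. The array of mouse 9 is the one that reads low throughout, and its part in this order was not tested.

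**Figure D2:**
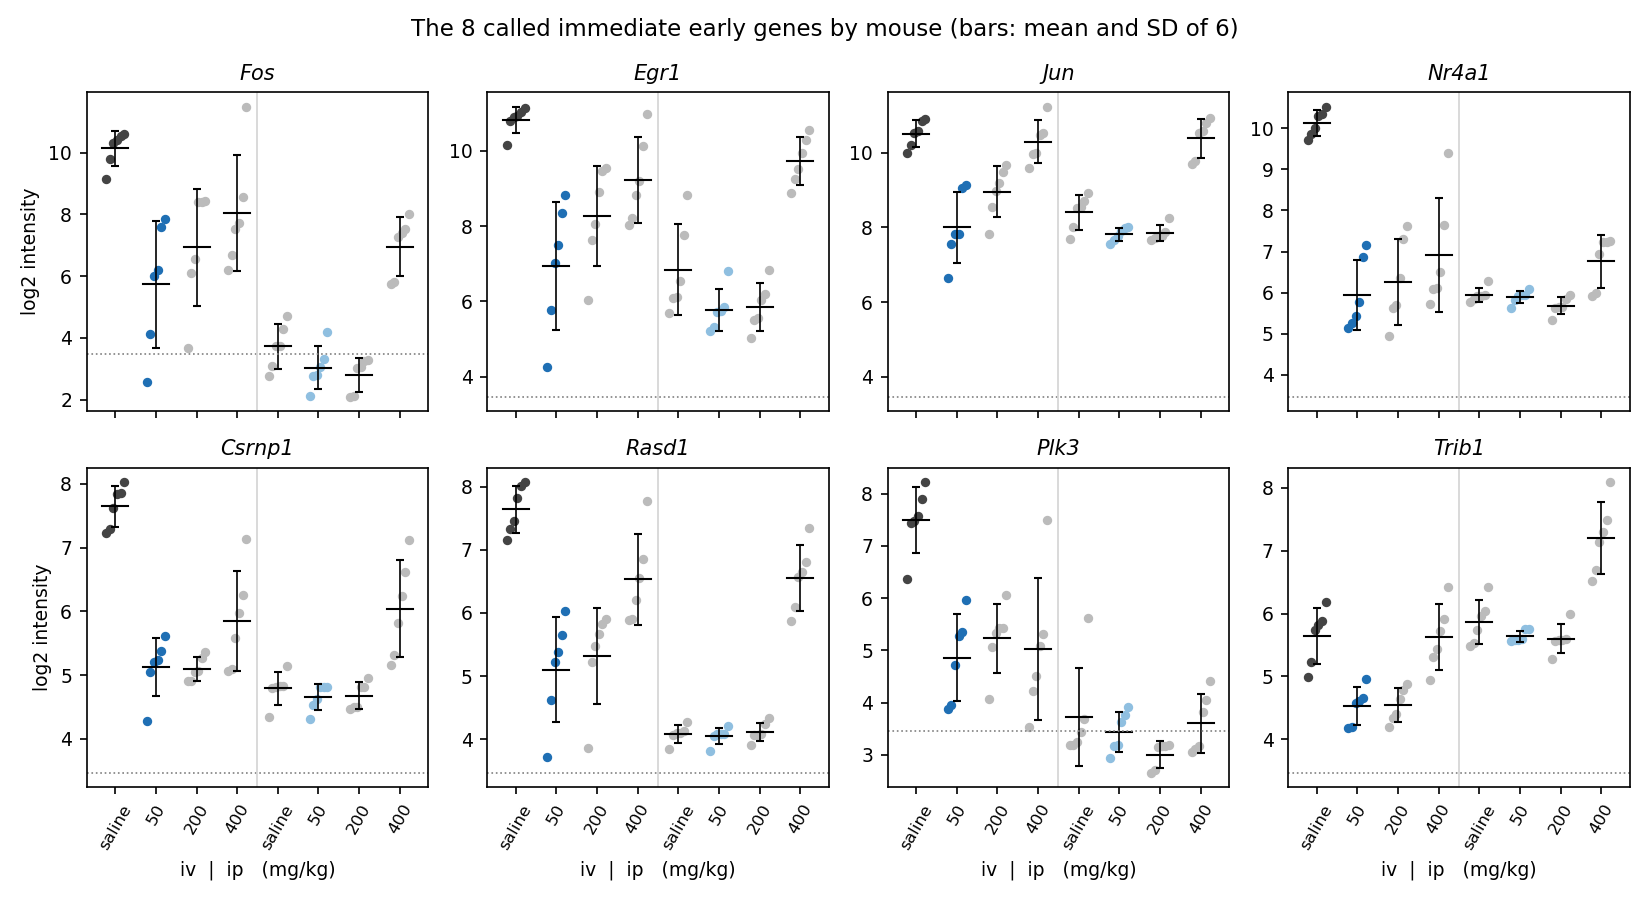
Log2 intensity of the 8 immediate early genes that fell at iv 50 mg/kg in all 48 mice, 1 point per mouse, by route and dose, with the mean and SD of each group of 6; the dotted line is the table median. Every iv saline mouse (black) sits above every iv 50 mg/kg mouse (dark blue) in each panel, and in each but that of Trib1 above every ip saline mouse as well.

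Transcription factors of the C/EBP family, which glucocorticoids and cytokines induce, were lower too. Cebpb was at 8.60 to 9.86 (median 9.57) in saline and 6.48 to 8.15 (median 7.44) at 50 mg/kg. Cebpd was at 8.77 to 10.07 (median 9.18) and 7.05 to 8.15 (median 7.83). In both genes every treated mouse was below every saline mouse, at -2.00 ± 0.27 and -1.53 ± 0.29 (SE, adjusted p = 3.4e-06 and 0.000893). They were the 2 of 8 tested genes of the glucocorticoid response list that fell, and 0 rose (4 lower and 0 higher at an unadjusted p under 0.05). All 8 had a lower mean, with a median of -0.45. The cell cycle inhibitor Cdkn1a did not pass (-1.17, adjusted p = 0.0619), although its groups, 6.81 to 7.45 and 5.42 to 6.32, did not overlap. The fit uses the spread within all 8 groups. The SD of Cdkn1a was 0.24 in iv saline, 0.32 at iv 50 mg/kg and 1.07 at iv 200 mg/kg. It passed in 2 of 24 alternative fits. Tsc22d3, the glucocorticoid-induced leucine zipper, was at -0.51 (adjusted p = 0.999).

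Id1, an inhibitor of helix-loop-helix factors and a target of BMP signals, ranged from 10.08 to 10.91 (median 10.46) in saline and from 8.33 to 9.56 (median 9.12) at 50 mg/kg. There was no overlap, and it fell by 1.50 on the log2 scale (SE 0.26, adjusted p = 0.000359). Hbegf, a growth factor that binds the EGF receptor and is itself an early response gene, had 5.12 to 6.56 (median 5.99) against 2.98 to 5.10 (median 4.50). Its groups just missed each other, at -1.59 ± 0.32 (SE, adjusted p = 0.00325), and its other probe set fell as well (-1.21, adjusted p = 0.00943). Ptgs2, the inducible cyclooxygenase that makes prostaglandins and is found in the macula densa and interstitium of the kidney, was dim. It lay at 4.23 to 5.22 (median 4.64) in saline and at 3.03 to 3.50 (median 3.19) after vancomycin, near or under the table median. Its log2 fold change was -1.39 ± 0.31 (SE, adjusted p = 0.011), and without saline mouse 2 the adjusted p was 0.0516.

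Noct, a rhythmic gene that codes for nocturnin, was at 8.37 to 9.95 (median 9.67) in saline and 6.49 to 8.76 (median 7.63) at 50 mg/kg. Saline mouse 1, the array that reads low, was the only saline value inside the treated range. Slc25a25, a calcium-dependent ATP carrier of mitochondria, was at 7.55 to 9.33 (median 8.16) and 4.42 to 7.77 (median 5.55), with a small overlap. The log2 fold changes were -1.93 ± 0.34 for Noct and -2.59 ± 0.45 for Slc25a25 (SE, adjusted p = 0.000499 and 0.000295). Nfkbiz, a nuclear IkappaB protein, had 6.97 to 8.66 (median 8.15) in saline and 5.71 to 7.20 (median 6.46) at 50 mg/kg. It overlapped at the edge and fell by 1.43 (SE 0.26, adjusted p = 0.00066). It was the only one of 15 tested inflammatory signal genes that passed, and the adhesion molecule gene Icam1 was at -0.60 (adjusted p = 0.82).

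Vmp1, which codes for a membrane protein of autophagosome formation, had 11.33 to 11.85 (median 11.43) in saline and 9.91 to 10.67 (median 10.40) at 50 mg/kg, with a wide gap. The fall was -1.20 ± 0.14 (SE, adjusted p = 2.24e-07), but its other probe set was at -0.16 (adjusted p = 0.999), so the probe sets of Vmp1 disagree. Tsc22d1, a leucine zipper gene, was at 12.80 to 13.17 (median 12.98) and 11.93 to 12.50 (median 12.32) and fell by 0.73 without overlap (adjusted p = 0.00836). Its other probe set was at -0.38 (adjusted p = 0.508). Rcan1, an inhibitor of calcineurin, fell by 1.11 (adjusted p = 0.000815), and its other probe set was at -1.43 (adjusted p = 0.0957). Of the 5 genes that fell and had several kept probe sets, all had the same direction in each and 1, Hbegf, passed in each.

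Tob2, an antiproliferative adaptor of mRNA decay, fell by 1.43, the noncoding RNA Snhg3 by 1.19, Dmrt2, a DM-domain factor, by 1.14, the potassium channel gene Kcnk5 by 1.10 and Rprd2, a regulator of RNA polymerase II, by 1.03. Polr3d, a subunit of RNA polymerase III, fell by 0.92, the stress factor Ddit3 by 0.79, Apbb3 by 0.71, Tiparp, a target of the aryl hydrocarbon receptor, by 0.57 and the myosin light chain gene Myl6 by 0.53. Of these, Snhg3, Kcnk5 and Apbb3 had groups that did not overlap. The calls for Myl6 (adjusted p = 0.0498), Ddit3 (0.0294) and Tiparp (0.0291) were near the threshold. Myl6 lost its call in 9 of the 12 fits that leave out a mouse, and Ddit3 and Tiparp in 6 each. Polr3d lost it without mouse 9, 10, 3 or 4 (adjusted p = 0.0534, 0.0543, 0.0576 and 0.0588) and Kcnk5 without mouse 9 or 3 (0.0781 and 0.086).

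Both genes that rose did so by little. The RNA gene 9330151L19Rik was at 4.52 to 5.03 (median 4.78) in saline and 5.10 to 6.14 (median 5.32) at 50 mg/kg. The groups were adjacent but did not overlap, at 0.66 ± 0.16 (SE, adjusted p = 0.0272). Zfp418, a zinc finger gene, was at 2.63 to 3.06 (median 2.84) and 2.90 to 4.06 (median 3.39), which is mostly under the table median, and was higher by 0.59 ± 0.14 (SE, adjusted p = 0.0294). The first lost its call without mouse 7, 78, 2, 3 or 4 (adjusted p = 0.144, 0.062, 0.068, 0.0998 and 0.0544), and Zfp418 without mouse 11, 78, 9, 3, 4 or 6 (0.0978, 0.142, 0.103, 0.103, 0.0913 and 0.0611). Next in p were Repin1 (0.39, adjusted p = 0.0604), Cdk7, the kinase of transcription factor IIH (0.34, 0.069), Kpna4, an importin (0.53, 0.0965), Bet1l (0.31, 0.101), Vamp1 (0.62, 0.13), Zbtb26 (0.52, 0.142), Rsrp1 (0.41, 0.156) and Rbmx (0.52, 0.163), none of which passed. The count of genes that rose was 9 without mouse 9, 1 without mouse 7, 11 or 78 and 0 without mouse 3 or 4.

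The falls at 50 mg/kg can be read against all groups of the study. In 19 of the 30 genes that fell, the iv saline mean was higher than the mean of each of the 7 other groups, ip saline included. The same held for 89 of the 141 probe sets that fell, with or without a name, and for 740 of all 24930 (2.97%). Of the 55 probe sets that rose, 48 had an iv saline mean below each of the 7 other group means. For this direction the share over all probe sets was not taken. Since the saline level enters the change itself, these shares are given as a description. Nr4a1 had means of 10.12 in iv saline, 5.94 at iv 50 mg/kg, 5.95 in ip saline and 5.89 at ip 50 mg/kg. Fos had 10.14, 5.73, 3.72 and 3.04 in the same order. The part of the offset between iv and ip arrays in these levels was not tested. In whole kidney, fewer cells of a type and less RNA per cell cannot be told apart.

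The same dose by the other route gave few changes. Against ip saline, 3 of 5748 genes passed at ip 50 mg/kg (0.0522%), all of them clock genes that rose: Ciart (1.86), Dbp (1.68) and Per3 (1.21). Of the 30 genes that fell by iv, 0 fell by ip (0 also at an unadjusted p under 0.05) and Ciart rose, while the median change of the 30 was -0.06 by ip against -1.43 by iv. The difference between the iv and ip effects was itself tested, with no samples shared, and passed for 11 genes (0.191%), in each of which the iv effect was lower; all 11 are among the 30. Largest was Nr4a1, at -4.13 ± 0.58 (SE, adjusted p = 2.96e-05). Rasd1, Csrnp1, Id1, Jun and Cebpb differed by -2.51, -2.38, -1.93, -1.92 and -1.85, and Nfkbiz, Rprd2, Snhg3 and Vmp1 by -1.62, -1.53, -1.41 and -1.15. Jun (adjusted p = 0.0289) lost this call without mouse 10, 11, 7, 9, 2, 3 or 6 (adjusted p up to 0.0808) and Nfkbiz (0.0409) without mouse 10, 11, 7, 9, 1, 2, 5 or 6 (up to 0.112). Vmp1 has an adjusted p of 0.0014, but 1.00 when its probe sets are averaged. Fos and Egr1, whose spread is wide, did not pass for route (-3.72 ± 1.02 and -2.80 ± 0.81, SE, adjusted p = 0.182 and 0.237).

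Ciart, a repressor of the circadian clock, had opposite signs by route. By iv it was at 7.07 to 8.03 (median 7.27) in saline and 5.05 to 6.67 (median 5.92) at 50 mg/kg, without overlap. By ip it was at 3.22 to 4.82 (median 3.95) and 4.19 to 6.98 (median 6.17). The iv effect was -1.50 ± 0.37 (SE, adjusted p = 0.0294), the ip effect 1.86 ± 0.37 (0.0483) and the difference -3.36 ± 0.52 (0.000211). The iv call was lost without mouse 10, 7, 9, 3, 4 or 5 (adjusted p = 0.0574 to 0.11). Dbp, a clock output factor, was 0.06 by iv (9.41 to 10.57 in saline, 9.63 to 10.03 at 50 mg/kg) and 1.68 by ip, but its difference did not pass (adjusted p = 0.098). Of 18 clock genes tested at iv 50 mg/kg, Ciart fell, 0 rose (3 lower and 0 higher at an unadjusted p under 0.05), and the median was -0.01. The Nfil3 repressor was at -1.19 (adjusted p = 0.146), Nr1d1 at -0.35 and Arntl, which codes for BMAL1, at 0.17.

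The promoter of Ciart is shown for its copies of CACGTG, the E-box that the clock factors CLOCK and BMAL1 bind, at chr3:95882179-95882478 (-), with matches in capitals.
Ciart: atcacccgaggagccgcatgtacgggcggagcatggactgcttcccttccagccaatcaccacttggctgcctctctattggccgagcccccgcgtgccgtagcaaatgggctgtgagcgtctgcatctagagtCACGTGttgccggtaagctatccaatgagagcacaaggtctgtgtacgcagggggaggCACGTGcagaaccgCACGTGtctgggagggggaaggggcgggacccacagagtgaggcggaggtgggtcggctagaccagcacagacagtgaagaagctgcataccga
It has 3 matches, at -116, -58 and -44 from the start. The E-box, which reads the same on both strands, was found in 2349 of 32851 windows (7.15%), in 529 of 4656 tested genes with a window (11.4%) and in 5 of the 21 genes with a window that fell (23.8%).

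**Figure D3:**
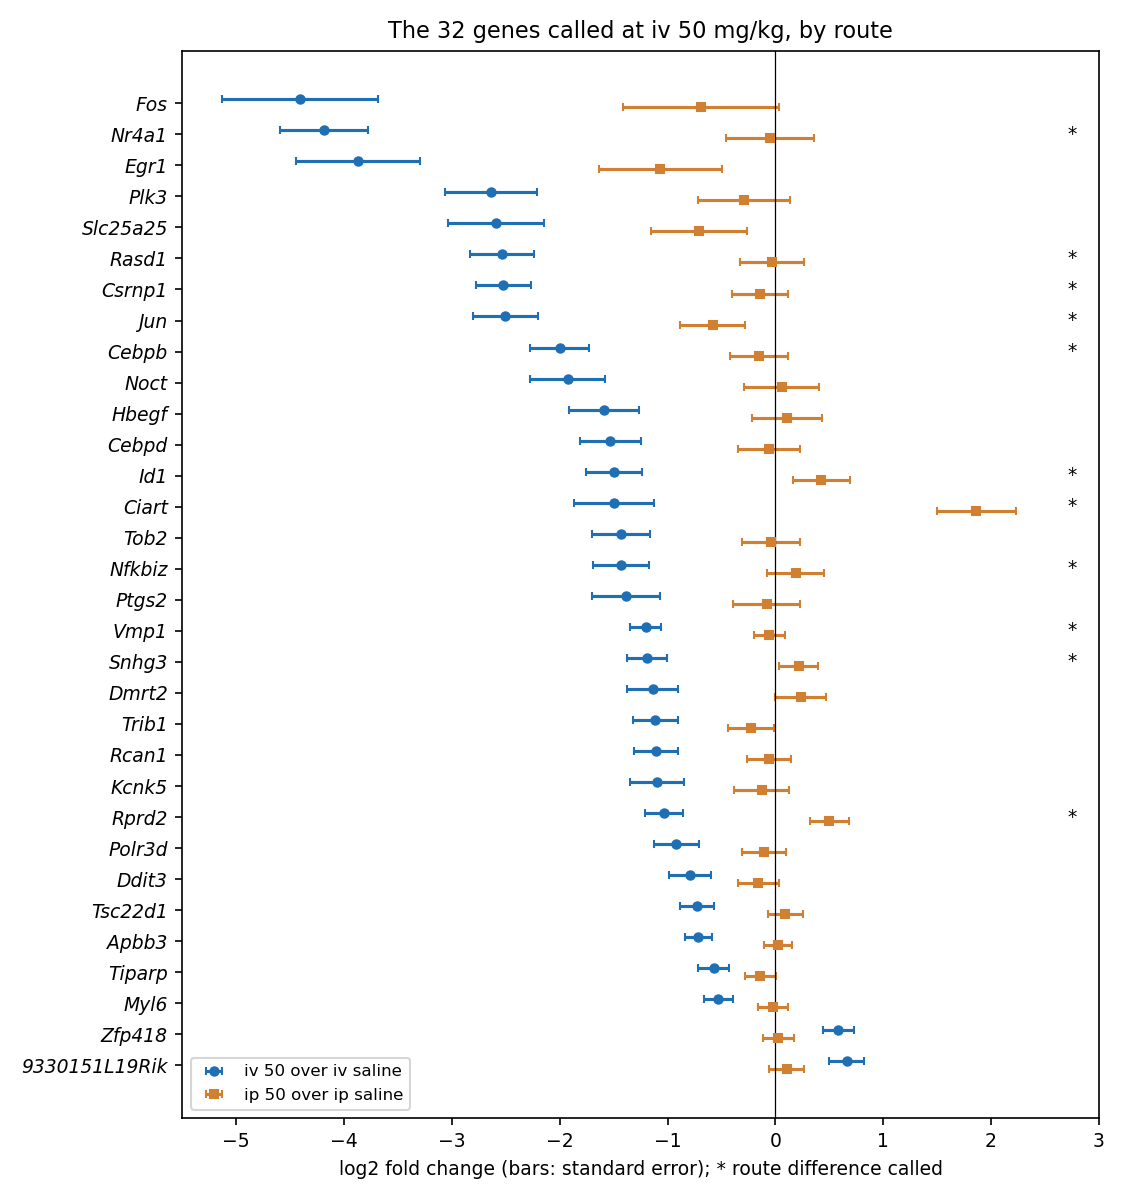
Log2 fold change (with standard error) of the 32 genes that passed at iv 50 mg/kg, over iv saline (circles) and for the same dose by ip over ip saline (squares). Asterisks mark the 11 genes whose route difference passed; the squares run from -1.07 for Egr1 to 1.86 for Ciart, and of these ip effects that of Ciart passed.

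Many more genes differed between the iv doses of 200 and 50 mg/kg than between 50 mg/kg and saline. Between iv 200 and iv 50 mg/kg, 297 genes were higher (5.17%) and 24 lower (0.418%). Of the 30 genes that fell at 50 mg/kg, 5 were higher again at 200 mg/kg and 0 were lower still by limma (1 at an unadjusted p under 0.05). They were Nfkbiz (1.46), Cebpd (0.99), Vmp1 (0.79), Tsc22d1 (0.79) and Rcan1 (0.68). The rest did not differ past the threshold between these doses, Nr4a1 at 0.32 (adjusted p = 0.796) and Csrnp1 at -0.04 among them. Against saline, which all iv doses share, Nr4a1 was -4.18, -3.86 and -3.21 at 50, 200 and 400 mg/kg. Fos was -4.41, -3.21 and -2.10, and Jun -2.51, -1.56 and -0.22. Other genes were farther from saline at a higher dose, such as Slc25a25 (-2.59, -3.19 and -2.72) and Dmrt2 (-1.14, -1.38 and -1.77). The difference between 200 and 50 mg/kg did not pass in limma for Nr4a1, Fos (1.20, adjusted p = 0.452), Jun (0.94, 0.0678), Slc25a25 or Dmrt2 (-0.24, 0.705). Ciart was -1.50, -1.48 and -2.82.

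No tubular injury gene passed as higher at 50 mg/kg. Of 23 tested, limma found that 0 rose and 1, Hbegf, fell, and the median was -0.20. At an unadjusted p under 0.05, 0 were higher and 2 lower. Havcr1, which codes for the injury marker KIM-1, was at 8.71 to 10.21 (median 9.74) in saline and 8.56 to 9.64 (median 9.43) at 50 mg/kg, with the groups interleaved. Its difference was -0.39, with a 95% interval of -1.24 to 0.46, against 2.48 at 200 and 3.55 at 400 mg/kg. Clu, the chaperone clusterin, was at 9.05 to 10.49 (median 10.19) and 9.40 to 10.64 (median 10.27), a difference of 0.10 (-0.57 to 0.77), and was at 3.01 and 4.15 at the higher doses. Krt20, Cd44 and Serpina10 were at -0.03, 0.00 and -0.20, all at levels around or under the table median, while at 200 mg/kg they were at 2.48, 1.37 and 5.46. Ccn2, a matrix protein gene, was at -0.72 (adjusted p = 0.543), Tnfrsf12a at -0.46 and Cldn4 at -0.46. Between 200 and 50 mg/kg, 18 of the 23 injury genes passed as higher.

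Nor did the segment genes of the nephron pass in either direction at 50 mg/kg by limma, and at an unadjusted p under 0.05 only 1 gene, of the podocyte list, was lower. Proximal tubule transporters had 0 of 23 genes that passed and a median of -0.06, megalin uptake and brush border 0 of 10 (-0.05) and proximal tubule metabolism 0 of 20 (-0.05). Slc34a1, the phosphate transporter, lay at 12.83 to 13.63 (median 13.23) in saline and 12.92 to 13.65 (median 13.11) at 50 mg/kg. Lrp2, which codes for megalin, the uptake receptor of filtered proteins and drugs, lay at 12.15 to 13.02 (median 12.91) and 12.26 to 13.03 (median 12.91). The treated and saline values were intermixed, with differences of -0.02 (-0.64 to 0.60) and 0.03 (-0.45 to 0.51). The anion transporters Slc22a6 and Slc22a8 were at -0.22 and -0.10, the megalin partner Cubn at -0.04 and Hpd of tyrosine breakdown at 0.09 (-1.09 to 1.27). Loop and distal tubule genes had 0 of 16 (-0.04), with Umod at -0.05, Egf at -0.04, Calb1 at 0.22 and Pvalb at 0.21, collecting duct genes 0 of 13 (-0.06), with the water channel Aqp2 at -0.42 (-1.02 to 0.18), and podocyte genes 0 of 11 (0.10), with Nphs1 at 0.26 and Wt1 at 0.47. These intervals are not adjusted for the number of tests, and with 6 mice a group differences inside them may have been missed. Their width also rests on the spread within all 8 groups, the higher doses included. Hpd had an SD of 0.23 in iv saline and 0.29 at iv 50 mg/kg, but 2.30 at iv 400 mg/kg and 1.55 at ip 400 mg/kg.

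**Figure D4:**
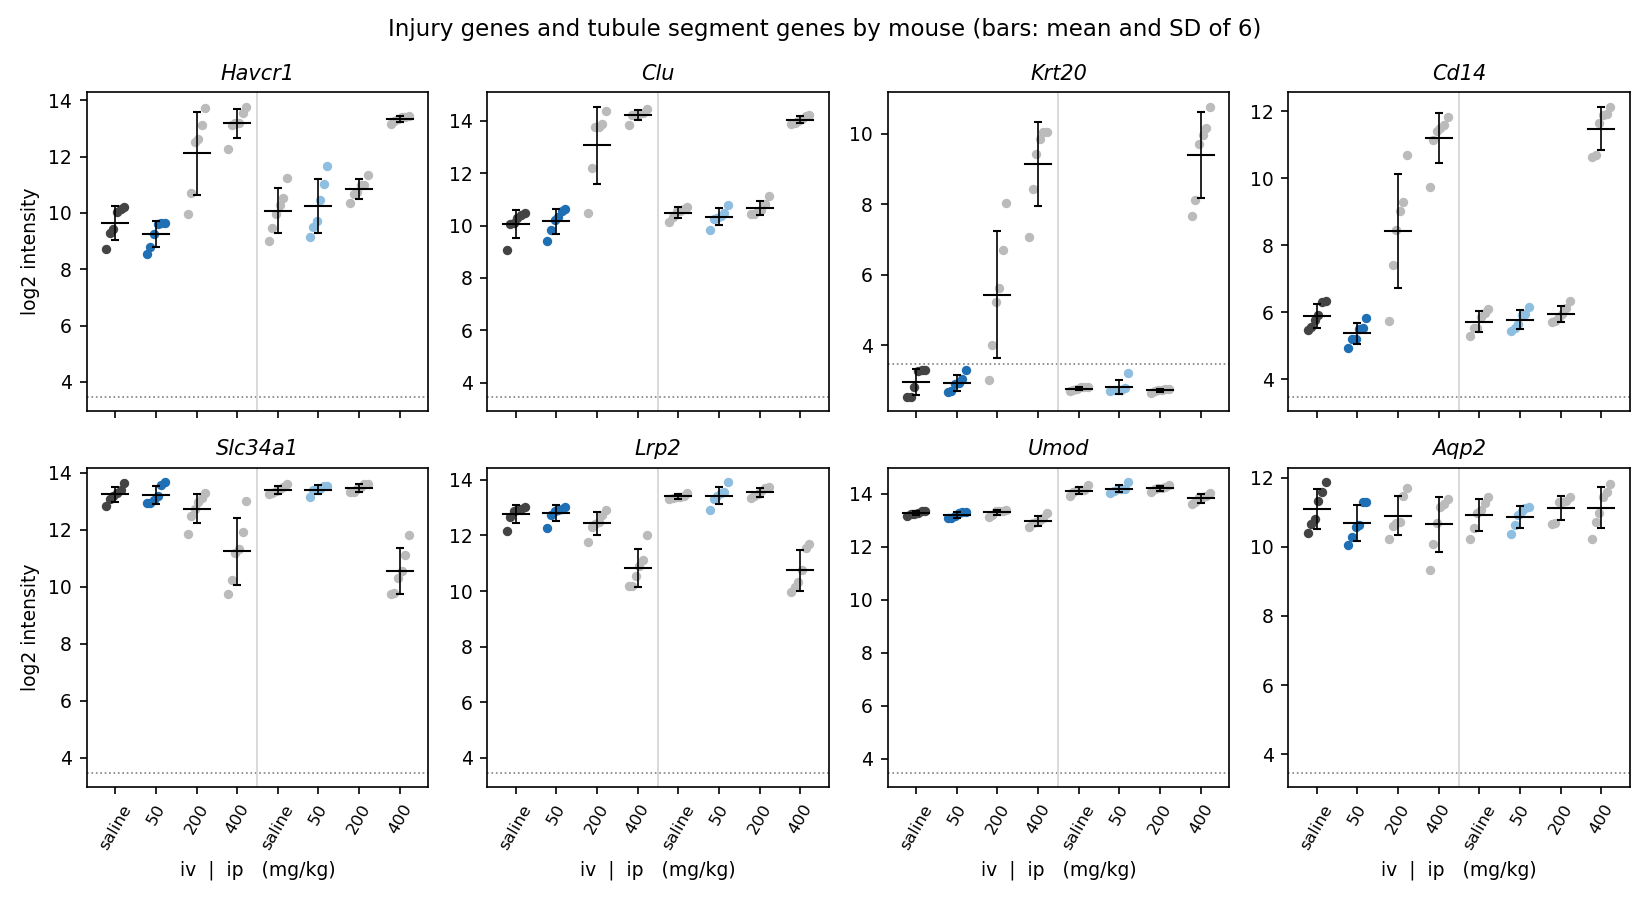
Log2 intensity of 4 injury or myeloid genes (top) and 4 nephron segment genes (bottom) in all 48 mice, by route and dose, with the mean and SD of each group of 6; the dotted line is the table median. At iv 50 mg/kg (dark blue) the values overlap those of iv saline (black), as for Havcr1 (8.56 to 9.64 against 8.71 to 10.21). Those of Cd14 reach lower (4.94 to 5.82 against 5.47 to 6.33). In the top row iv 200 mg/kg is higher and spread widely.

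Immune, matrix and stress lists were also without calls at this dose by limma, apart from Nfkbiz, Ddit3 and Ptgs2. At an unadjusted p under 0.05, 1 gene was lower among Nrf2 targets, 2 among p53 targets and 1 in fatty acid oxidation, and 1 was higher in endothelium. Inflammatory signals held 2 lower genes, Nfkbiz among them. Endoplasmic reticulum stress held 1 higher and 1 lower, and renin and vasoactive genes 1 lower. The macrophage, matrix, interferon, complement, antigen presentation, cell cycle, heat shock, oxidative phosphorylation and lysosome lists held 0. Macrophage and myeloid genes had 0 of 20 (median -0.03), with the complement component C1qa at -0.16, Lyz2 at -0.20 and the endotoxin co-receptor Cd14 at -0.52 (-1.34 to 0.30). At 200 mg/kg 13 of these 20 were higher than at 50 mg/kg. Extracellular matrix genes had 0 of 21 (-0.06), with the collagen gene Col1a1 at 0.01 and Fn1 at -0.42, and interferon response genes 0 of 23 (-0.06), complement 0 of 12 (-0.05; Cfb at 0.01) and antigen presentation 0 of 9 (-0.01). Cell cycle genes had 0 of 19 (0.01; Mki67 at -0.19). Of 13 endoplasmic reticulum stress genes Ddit3 fell, and of 5 renin and vasoactive genes Ptgs2 fell. Nrf2 targets had 0 of 20 (-0.06; Gclc, the limiting enzyme of glutathione synthesis, at -0.51, adjusted p = 0.863), p53 targets 0 of 10 (-0.16; Pmaip1 at -0.45), heat shock 0 of 14 (-0.04), oxidative phosphorylation 0 of 33 (0.01), fatty acid oxidation 0 of 19 (-0.04; Pdk4 at -1.10, adjusted p = 0.886), lysosome 0 of 21 (-0.05) and endothelium 0 of 13 (0.03).

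**Figure D5:**
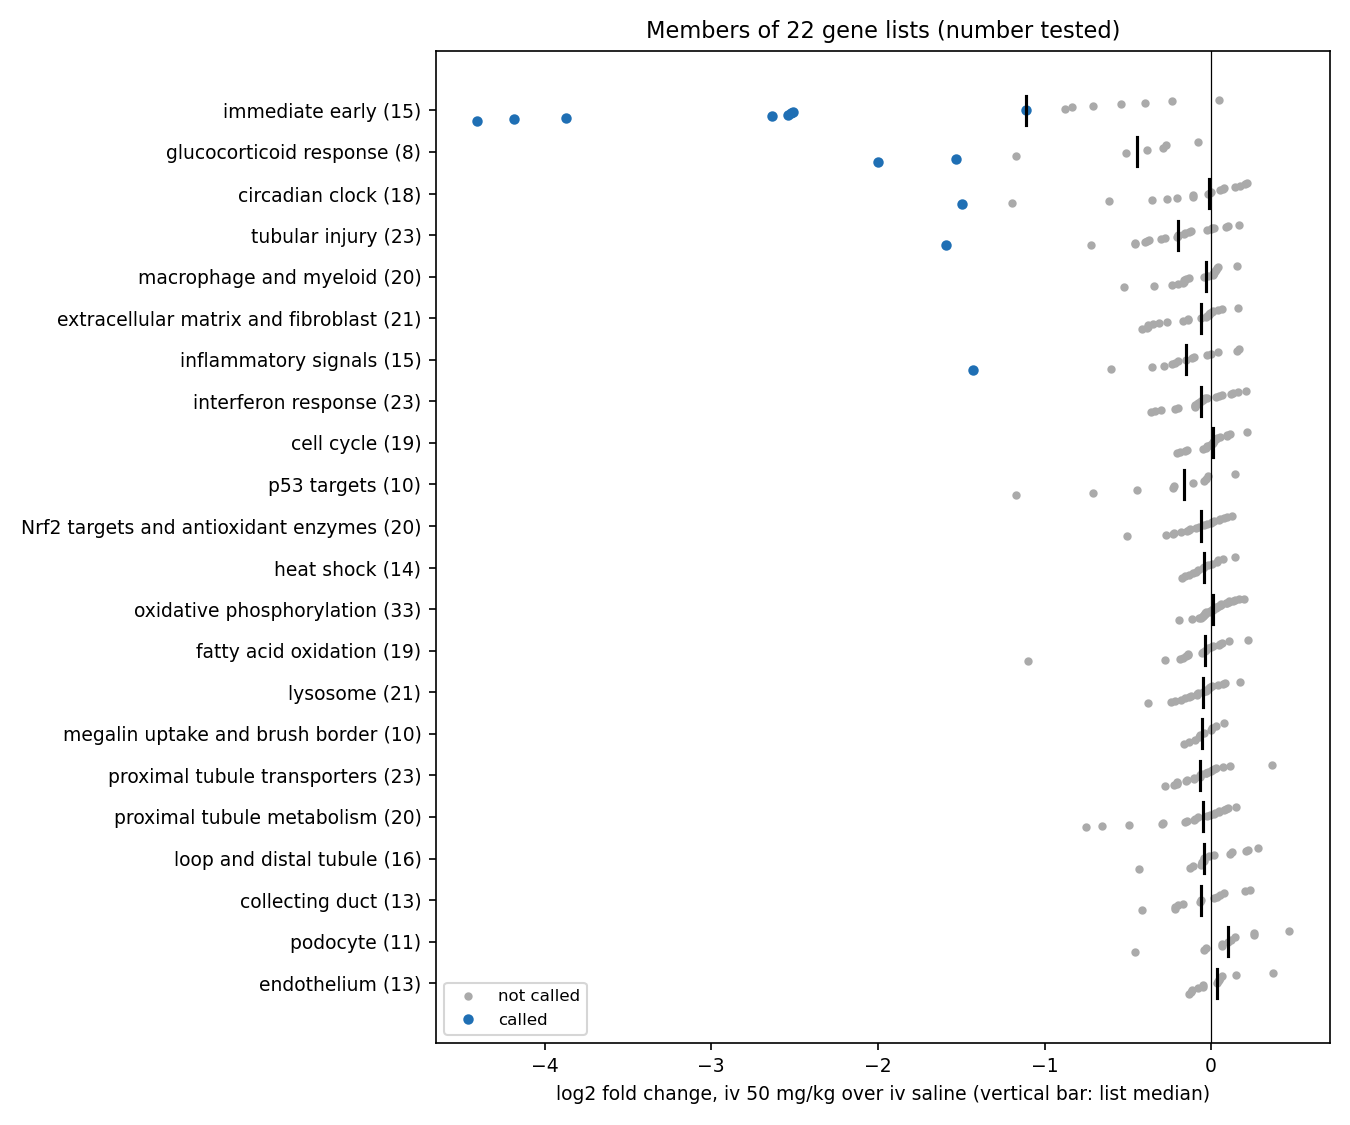
Log2 fold change at iv 50 mg/kg over iv saline for the tested members of 22 gene lists, 1 point per gene, with the list median as a vertical bar and called genes in blue. The immediate early list (median -1.11) extends to -4.41, and the nephron segment and immune lists cluster around 0.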

How the data were processed

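Kidney RNA of 48 mice, 1 mouse per Affymetrix array, was deposited as a table of 45101 probe sets. Its intensity values are on a linear scale, and the submitters' processing notes name GCRMA as the tool the authors used, with a version not given in the sources used here. GCRMA corrects background by probe sequence and summarises probes, so low values have little range. Log2 was taken without an offset.

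Values did not follow the identifiers beside them. Genes were taken from the identifier 64 rows later for rows 751 to 3250, 47 rows earlier for rows 5001 to 11750 and 16168 rows earlier for rows 34251 to 36000, and other rows stayed unnamed. In 44 windows of 250 rows, values centred on their mean over the 48 arrays were correlated between probe sets of the same gene. The best partner of each probe set was taken, and group effects were left in. The median correlation was 0.75 with this shift and 0.41 with the shift moved by 1 or 2 rows. The shift was above its 4 neighbours in 43 windows. As the shifts had been worked out from such correlations, these values describe the shift and are no independent check of it. A gene name therefore rests on this reconstruction. Names came from the platform annotation, where 34958 probe sets had 1 symbol, 932 had more and 9211 had no symbol, and a probe set needed exactly 1 to be named.

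Probe sets above the table median in at least 6 arrays were kept (24930). A model of 8 groups over all 48 arrays was fitted with limma 3.58.1 in R 4.3.3 (lmFit, contrasts and eBayes with a trend, 40 residual and 4.5 prior degrees of freedom), two-sided, with Benjamini-Hochberg adjustment over all kept probe sets and a threshold of 0.05. A gene was represented by its kept probe set of highest mean. SE is that of the moderated fit and intervals are 95% from it. Both use the spread within all 8 groups, not that of the compared groups alone. The script was tested on simulated data. No pair of arrays held identical values. The labels name no batch, no pairing and no replicate number shared between groups, and mice were treated as independent. The number of arrays limits the precision.

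Members, gene lists (36) and tests were chosen with earlier results of these data known. Genes are named by this rule: the 10 largest called changes in each direction with all 6 treated mice to 1 side of the mean of the saline mice, filled up with the next by p; 28 tested genes from a list of 32 to be inspected; up to 4 members of each list; the 5 genes of smallest p for the route difference in each direction; and all other called genes. The setting without mice 1 and 9 was chosen after seeing the data. Promoter windows are from RefSeq, matched by symbol.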

Additional observations from a re-analysis of the deposited data

Results flagged for a closer look

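Single mice stood far from the other 5 of their group in 11 of 178 groups of 6 examined, by a test that by chance picks about 1 in 20. The array of saline mouse 1, which reads low throughout, was the low value in 7 of them: Cfb at 9.51, Clu at 9.05, Noct at 8.37, Polr3d at 4.18, Rbmx at 5.66, Rcan1 at 8.41 and Tob2 at 5.26, on the log2 scale. Egr1 was low in saline mouse 4, at 10.14, with the next value at 10.80. Nphs1 was low in saline mouse 2, at 4.73. In treated mice Ccn2 was low in mouse 9, at 8.60, and Calb1 in mouse 12, at 12.25.

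The effect of 50 mg/kg differed between the iv and the ip route in 11 genes, by the test of the difference itself in limma with Benjamini-Hochberg adjustment. The iv minus ip differences of the log2 fold changes were -4.13 for Nr4a1, -3.36 for Ciart, -2.51 for Rasd1, -2.38 for Csrnp1, -1.93 for Id1, -1.92 for Jun, -1.85 for Cebpb, -1.62 for Nfkbiz, -1.53 for Rprd2, -1.41 for Snhg3 and -1.15 for Vmp1. In Ciart, Id1, Nfkbiz, Rprd2 and Snhg3 the ip fold change was above 0 (1.86, 0.43, 0.19, 0.50 and 0.22), and in the rest it was below 0. Of these ip changes, that of Ciart passed on its own.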

How the results depend on the processing

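The 32 genes that passed were refitted under each alternative, in 761 comparisons. Their direction held in all, and 673 kept the call while 88 lost it, most often Myl6 (19 times), Ddit3 and Tiparp (11 each) and Ciart and Zfp418 (9 each). Against 2 genes higher and 30 lower, 55 probe sets higher and 141 lower, array weights gave 19 and 58 genes and 219 and 254 probe sets. Fitting only the groups compared gave 0 genes higher, 22 lower and 14 and 72 probe sets, and 13 of the 32 calls were lost. Fitting only the 24 iv arrays gave 0 genes higher, 23 lower and 28 and 92 probe sets, and 10 calls were lost. Quantile normalization gave 5 genes and 95 probe sets higher, and 0 genes were higher with log2 above 6 in at least 6 arrays and 1 without mice 1 and 9. Leaving out a mouse at a time gave 0 to 9 genes higher, 24 to 32 lower, 34 to 78 probe sets higher and 108 to 162 lower. The lowest counts of probe sets higher were 34, 35 and 36, without mice 3, 12 and 10. For the route difference (0 genes higher and 11 lower, 7 and 40 probe sets), array weights gave 5 and 39 genes and 76 and 130 probe sets, and median centring 4 probe sets higher. Without a mouse at a time 9 to 14 genes were lower, 0 higher, and 4 to 10 probe sets higher, with 4 without mouse 10, 11 or 3. The cause of these moves was not tested. With array weights mice 1 and 9 counted 0.17 and 0.18 against 0.60 to 2.18 in the other 10. Among 57 uncalled genes named in the text, 24 of 1360 comparisons gained a call. Dim probe sets, such as Krt20 and Cd44 under the table median, limit what could be seen.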

Other observations

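The lists of other tissues and of housekeeping functions also held 0 called genes at iv 50 mg/kg by limma, with 1 gene of the cholesterol list higher and 0 of the others changed at an unadjusted p under 0.05. Cholesterol synthesis had a median log2 fold change of 0.06 over 11 genes, hypoxia and glycolysis -0.10 over 18, ribosomal proteins 0.02 over 9, adipose -0.04 over 6, muscle, liver, pancreas and spleen 0.05 over 5 and red blood cell 0.18 over 3. The adipose list was uneven between mice, with a mean level of 4.73 to 7.81 in iv saline and 4.95 to 6.38 at iv 50 mg/kg. The cause of this spread was not tested. The lists for lymphocytes of the T and NK kind, for B lineage cells and for neutrophils had 2, 2 and 1 testable genes, and the adrenal list had 0.

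The genes of smallest p whose effect was higher by iv than by ip did not pass the test of the route difference, in which 35 genes lay in that direction at an unadjusted p under 0.05. The clock activators Arntl and Npas2 were 0.17 and -0.11 by iv and -1.04 and -1.18 by ip, with differences of 1.21 and 1.07 (adjusted p = 0.144 and 0.498). The mitochondrial iron carrier gene Slc25a37 differed by 0.80, the ubiquitin-conjugating enzyme gene Ube2l6 by 1.03 and D930016D06Rik by 0.68. In the ip saline mice Arntl lay at 4.55 to 5.72 and Npas2 at 4.02 to 5.78, and in the iv saline mice at 2.80 to 3.37 and 2.62 to 3.98.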
